A study of Mus musculus with 12 samples.

Results

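The comparison described here asks whether loss of HOIL has the same effect on RNA in the cortex and in the medulla of the mouse thymus. For each gene the change in cortical thymic epithelial cells (cTECs) was subtracted from the change in medullary thymic epithelial cells with high MHC class II (mTEChi). All 12 libraries of the series enter it, 3 in each of 4 groups. Control cTECs and control mTEChi came from C57BL/6 mice of the genotype Foxn1cre+/+ Hoil lox/lox, read here as carrying the floxed Hoil alleles and no Cre (labelled wild type). HOIL-deficient cTECs and mTEChi came from C57BL/6 mice of the genotype Foxn1creT/+ HOIL lox/lox, in which Cre is driven from Foxn1, a gene of thymic epithelium in both compartments. Controls therefore share the floxed alleles and lack Cre, so that effects of Cre itself and of HOIL loss cannot be told apart. Both HOIL-deficient groups have 1 female library, replicate 3, and the other 10 libraries are male. No ages are given. Cells were sorted as CD45-negative, TER-119-negative, CD31-negative and EpCAM-positive, with Ly51 marking cTECs and UEA1 binding with high MHC class II marking mTEChi. Nothing in the labels says that replicates are separate animals, so every p value rests on the spread among these libraries, which may be technical. Library totals ranged from 7941217 to 14274333 counts.

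Rbck1 encodes HOIL-1, which together with HOIP (Rnf31) and SHARPIN forms LUBAC, a ligase that builds linear ubiquitin chains. Linear chains on receptor complexes carry signals of the TNF receptor family to NF-kB and restrain cell death. cTECs present the ligands that drive positive selection and early T cell commitment. mTEChi express Aire and a wide set of tissue-restricted antigens and depend for their development on RANK, CD40 and lymphotoxin beta receptor signals. Levels below are CPM, counts scaled by library size and composition, and effects are log2 fold changes of HOIL-deficient over control libraries. A difference is the mTEChi effect minus the cTEC effect. A gene is called when its adjusted p (edgeR quasi-likelihood test, Benjamini-Hochberg over all tested genes) is under 0.05. Groups do not overlap when all HOIL-deficient libraries lie above, or all lie below, the control libraries of that population. That was common, with 5440 of 19398 tested genes in cTECs and 8686 in mTEChi. Gene coordinates are from RefSeq on GRCm38.p6, the assembly behind mm10.

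Markers of other cell types were detected, and their summed levels moved with genotype, in part differently in the 2 populations. Summed markers of thymocytes (23 genes) were 1830 to 5920 CPM in control cTECs, highest in replicate 1, against 685 to 1350 in HOIL-deficient cTECs, 287 to 419 in control mTEChi and 380 to 583 in HOIL-deficient mTEChi. Fibroblast and pericyte markers (25 genes) summed to 983 to 2890 CPM in control and 5710 to 7360 CPM in HOIL-deficient cTECs. In mTEChi the sums were 788 to 886 CPM in control and 1750 to 2160 CPM in HOIL-deficient libraries. Mitochondrial transcripts took 3.19 to 8.93% of counts in control mTEChi, highest in replicate 1, and 1.71 to 1.91% in HOIL-deficient mTEChi. Malat1, a nuclear RNA, took 3.29 to 5.13% and 0.713 to 0.983% there. The labelled populations matched their defining markers: Psmb11 averaged 3769.7 CPM in control cTECs and 82.1 in control mTEChi, and Aire 0.838 and 809.

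Rbck1 itself fell in both populations. It stood at 185, 235 and 214 CPM in control cTECs against 20.8, 31.3 and 20.6 in HOIL-deficient cTECs, and in mTEChi at 130.2, 129 and 113 CPM in controls and 11.3, 11.8 and 23.4 CPM without HOIL. The effects were -3.13 and -2.99, with a difference of 0.14 (95% interval -0.63 to 0.91). Among the 10 genes of LUBAC and its deubiquitinases, 1 was called for the difference, a share near the 9.84% of all tested genes. Otulin (Entrez 432940, chromosome 15, 27597055 to 27630977), the deubiquitinase that cleaves linear chains, was at 380.3, 302 and 316 CPM in control mTEChi against 176, 172 and 191 in HOIL-deficient mTEChi. It did not overlap there (log2 fold change -0.89, SE 0.16, adjusted p = 0.0027), whereas its cTEC effect was -0.09 (difference -0.80, SE 0.23, adjusted p = 0.044). That call passed the threshold in 13 of 26 refits with other settings or fewer libraries. Rnf31 had effects of -0.98 and -0.96 (difference 0.02, interval -0.95 to 0.99), and Sharpin -0.61 and 0.05 (difference 0.66, interval 0.11 to 1.21, adjusted p = 0.12).

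Of 19398 tested genes, 1908 (9.84%) were called for the difference, 1159 (5.97%) with the higher and 749 (3.86%) with the lower effect in mTEChi. In cTECs alone 2342 genes (12.1%) were called, 1175 higher (6.06%) and 1167 lower (6.02%). In mTEChi 3858 (19.9%) were called, 2191 higher (11.3%) and 1667 lower (8.59%). The share of difference calls that were higher was 60.7% with the scaling used here (TMM). It was 45% with RLE factors, 42% with upper-quartile factors and 46.6% with DESeq2, scalings that move the median difference of all genes from 0.0889 to between -0.0665 and -0.0485. The balance of higher and lower calls thus depended on the scaling.

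Part of the responses was called in both populations. Of the 711 genes called in both, 564 moved the same way and 147 the opposite way. The 711 are 30.4% of the cTEC calls and 18.4% of the mTEChi calls. Genes were then sorted into response classes, after setting apart those with a mean under 1 CPM in both groups of a population (near zero), which left 15095 genes. Shared responses, called in both with the same sign, covered 329 higher and 215 lower genes. Opposite responses covered 142 genes, 71 up in mTEChi and down in cTECs and 71 the reverse. One-population responses needed a call in 1 population, none in the other, and a call for the difference: 593 genes in cTECs (313 higher, 280 lower) and 879 in mTEChi (643 higher, 236 lower). A further 145 were called for the difference alone. Another 927 cTEC calls and 1845 mTEChi calls were not resolved, since the difference was not called, so the counts do not say how many responses are particular to a population. Single libraries moved these numbers. Without control mTEChi replicate 1, the library with the highest mitochondrial share, 1172 genes were called for the difference, of which 79 were opposite and 417 mTEChi-only. Without control mTEChi replicate 3 the counts were 949, 52 and 402, and 353 genes were cTEC-only. Without control cTEC replicate 3 there were 1256 difference calls and without HOIL-deficient mTEChi replicate 3 there were 1182.

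**Figure D1:**
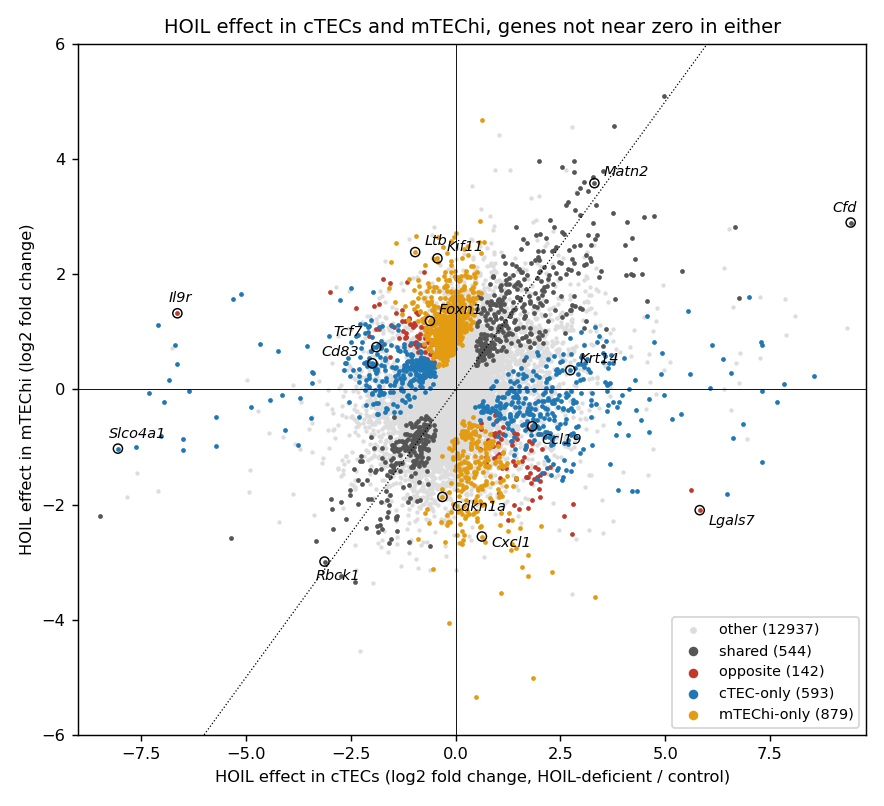
HOIL effect in cTECs (x axis) against the effect in mTEChi (y axis), both log2 fold changes, for the 15095 genes that were not near zero in either population; colours are response classes and the dotted line marks equal effects. Shared genes lie along the diagonal, cTEC-only genes along the x axis, mTEChi-only genes along the y axis and the 142 opposite genes in the upper left and lower right.

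**Figure D2:**
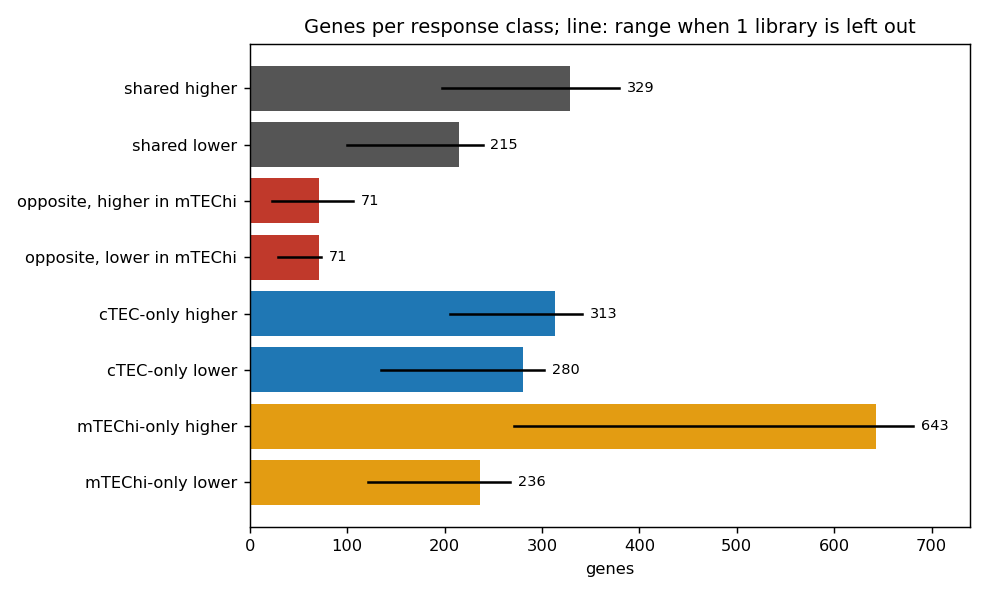
Number of genes in each response class (bars) with the lowest and highest number found when 1 of the 12 libraries was left out (lines). The mTEChi-only higher class is the largest with 643 genes.

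The cortex-to-medulla contrast of the controls is given for each class as a description, because the control libraries that set it also enter the effects that chose the genes. Of the 643 mTEChi-only higher genes, 590 (91.8%) were higher in control cTECs than in control mTEChi, against 44.9% of all tested genes. Of the 313 cTEC-only higher genes, 23 (7.35%) were. The corresponding shares were 76.1% of the 71 opposite genes that rose in mTEChi, 9.86% of the 71 that fell there, 76.4% of cTEC-only lower and 12.3% of mTEChi-only lower genes. For shared genes they were 49.8% (higher) and 42.8% (lower). The median gap, the log2 ratio of cTEC to mTEChi means, went from 1.67 to 0.128 for opposite genes that rose in mTEChi and from -3.51 to -0.622 for those that fell. In mTEChi-only higher genes it went from 1.39 to 0.158, and in cTEC-only higher genes from -2.41 to -0.318. The gap was smaller for 66.8% of all tested genes too. A gene chosen for rising in the population where it was lower, or falling where it was higher, has a smaller gap by construction, so the shares and medians of the classes carry no test.

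Part of the genes of cTEC identity and function had the higher effect in mTEChi. Of 34 cTEC-associated genes, 15 had the higher and 3 the lower effect in mTEChi (against 5.97% and 3.86% of all genes), and 16 were not called for the difference. The median effects were -0.392 in cTECs and 0.242 in mTEChi. In mTEChi 9 rose and 3 fell (11.3% and 8.59% of all genes), and in cTECs 4 rose and 11 fell (6.06% and 6.02%). The difference counts of this list stayed within 1.5 times under every refit. Foxn1 (Entrez 15218, chromosome 11, 78357577 to 78386783), the master transcription factor of thymic epithelium, was at 42.4, 90.6 and 71.5 CPM in control mTEChi and 171, 138 and 157 CPM in HOIL-deficient mTEChi. The groups did not overlap (log2 fold change 1.19, SE 0.26, adjusted p = 0.0071). In cTECs Foxn1 was at 356, 658 and 532 CPM in controls and 359, 273 and 378 CPM without HOIL, with overlapping groups and no call (effect -0.61, adjusted p = 0.14; difference 1.80, SE 0.37, adjusted p = 0.0099). Foxn1 also drives the Cre in the HOIL-deficient mice. Slc46a2, a transporter of thymic stroma, rose in mTEChi from 41.0, 60.7 and 57.8 to 235, 167 and 146 CPM, while cTECs held 999.7, 1227 and 1119 CPM in controls and 1013, 863 and 931 CPM without HOIL (difference 2.03, SE 0.27, adjusted p = 0.0013). Pltp, the phospholipid transfer protein, had effects of 1.47 in mTEChi and -0.29 in cTECs (adjusted p for the difference = 0.00059). Cxcl12, a chemokine that draws progenitors to the cortex, rose in mTEChi from 50.8 ± 18.0 to 133 ± 44.2 CPM (SD, n = 3; difference 1.89, SE 0.35, adjusted p = 0.0062).

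Psmb11, Prss16, Ly75, Cd83 and Tapbp fell in cTECs without a call in mTEChi. Psmb11 (Entrez 73902, chromosome 14, 54625310 to 54629556), the thymoproteasome subunit, was at 4467, 3575 and 3267 CPM in control cTECs against 1592, 1375 and 1458 in HOIL-deficient cTECs. Every HOIL-deficient library was below every control library. In mTEChi it was at 80.9, 108 and 57.3 CPM in controls and 90.3, 103 and 115 CPM without HOIL (difference 1.67, SE 0.28, adjusted p = 0.0044). Prss16, the thymus-specific serine protease, had effects of -1.32 in cTECs and 0.67 in mTEChi (adjusted p = 0.074; difference 1.99, SE 0.35, adjusted p = 0.0055). Ly75, an endocytic receptor used to mark cTECs, had -1.47 and 0.07 (adjusted p for the difference = 0.012). Cd83 (Entrez 12522, chromosome 13, 43785112 to 43803133), which stabilises MHC class II at the cell surface, fell most of these. Its levels were 4827, 3436 and 3134 CPM in control and 866, 990.3 and 1018 CPM in HOIL-deficient cTECs, and 74.9, 116 and 107 CPM in controls and 80.1, 182 and 146 CPM without HOIL in mTEChi (difference 2.44, SE 0.37, adjusted p = 0.0024). Tapbp, which loads MHC class I, fell in cTECs (effect -0.65, adjusted p = 0.015) and had no call in mTEChi (0.24; difference 0.89, SE 0.21, adjusted p = 0.021; passing in 22 of 26 refits). Of the 24 genes of MHC class I presentation, the list that holds Psmb11 and Tapbp, 2 rose and 3 fell in cTECs (6.06% and 6.02% of all genes). In mTEChi 3 rose and 5 fell (11.3% and 8.59%), and 3 had the higher and 1 the lower effect there (5.97% and 3.86%). The 3 that rose in mTEChi and the 1 with the lower effect are near the shares of all genes. The lower count was 3 with RLE or upper-quartile factors or without control cTEC replicate 1.

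Other genes associated with cTECs moved differently. Dll4, the Notch ligand that commits progenitors to the T lineage, fell in both populations, with no call for the difference. It was at 224, 453 and 350.5 CPM in controls and 183, 119 and 168 CPM without HOIL in cTECs and 29.4, 39.9 and 34.02 CPM in controls and 17.6, 18.1 and 14.8 CPM without HOIL in mTEChi (difference 0.09, interval -0.64 to 0.82). Cd274, which encodes PD-L1, fell in both too, but more in cTECs (effects -1.47 and -0.48; difference 0.99, SE 0.19, adjusted p = 0.0079). Ccl25, a thymocyte-attracting chemokine, fell in cTECs with a difference that did not pass (difference 0.66, SE 0.26, adjusted p = 0.12). The 3 list members with the lower effect in mTEChi were Igfbp5, Igfbp6 and Tgfb2, a growth factor and binding proteins of growth factors, named after their values were seen. Each was far higher in control mTEChi than in control cTECs and rose in cTECs. The call of Igfbp6 for the difference passed in 8 of 26 refits. Igfbp5 was at 19.8, 9.54 and 11.8 CPM in controls and 26.5, 67.3 and 46.8 CPM without HOIL in cTECs and 100.1, 46.1 and 62.8 CPM in controls and 19.99, 22.1 and 33.8 CPM without HOIL in mTEChi, where it fell (difference -3.22, SE 0.54, adjusted p = 0.0041).

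**Figure D3:**
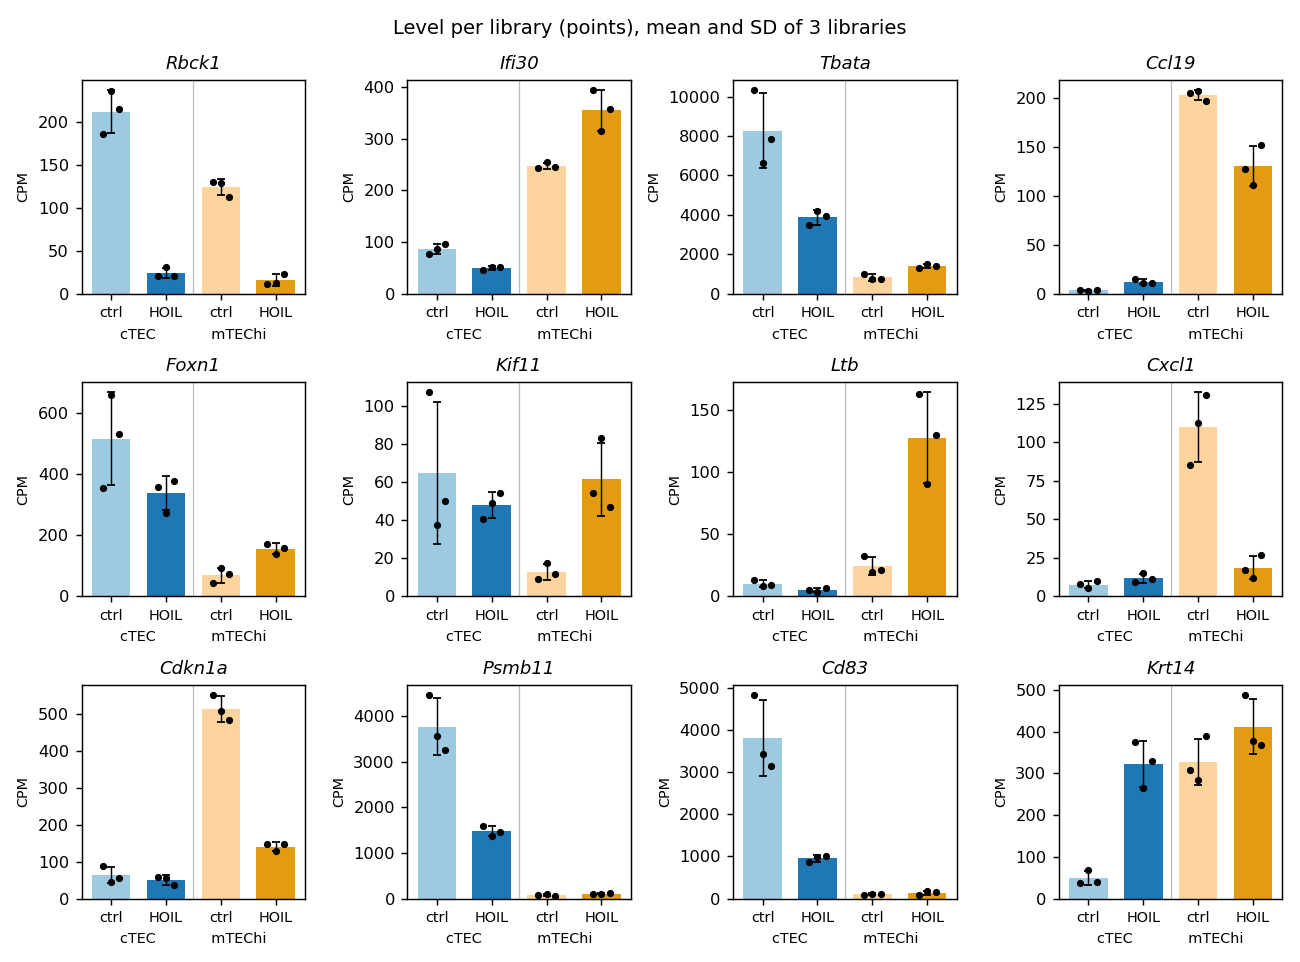
Level in every library (points), with the mean (bar) and SD (line) of the 3 libraries of a group, in CPM, for 12 genes of the response classes; light bars are controls and dark bars HOIL-deficient. Ifi30 and Tbata fall in cTECs and rise in mTEChi, Ccl19 does the reverse, Foxn1, Kif11 and Ltb rise in mTEChi with no call in cTECs, and Cxcl1 and Cdkn1a fall in mTEChi with no call in cTECs. Psmb11 and Cd83 fall and Krt14 rises in cTECs with no call in mTEChi.

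Cell cycle genes rose in mTEChi. Of 43 tested, 37 rose in mTEChi (11.3% of all genes) and 7 in cTECs (6.06%), and 19 had the higher effect in mTEChi (5.97%). The median effects were 1.52 in mTEChi and 0.0405 in cTECs, against -0.026 and -0.024 over all tested genes. Kif11 (Entrez 16551, chromosome 19, 37376382 to 37421863), a mitotic kinesin, was at 8.86, 17.5 and 11.6 CPM in control mTEChi and 54.2, 83.0 and 47.1 CPM in HOIL-deficient mTEChi, with no overlap (log2 fold change 2.28, SE 0.38, adjusted p = 0.0015). In cTECs it was at 107, 37.3 and 50.2 CPM in controls and 40.8, 48.9 and 54.5 CPM without HOIL, with overlap and no call (difference 2.71, SE 0.51, adjusted p = 0.0072). Mcm4, a helicase subunit of replication origins, rose in mTEChi from 18.2, 25.7 and 24.1 to 80.8, 60.6 and 60.4 CPM, which brought it to the range of cTECs (84.7, 62.2 and 65.1 CPM in controls and 84.2, 62.8 and 71.2 CPM without HOIL). Its difference was 1.53 (adjusted p = 0.0069). Foxm1, a transcription factor of the G2 and M phases, had effects of 1.91 and -0.43 (difference 2.34, SE 0.42, adjusted p = 0.0059). Shared higher members were 5 in number. The 2 genes with the opposite difference were the D-type cyclins Ccnd1 and Ccnd2, named after their values were seen, which rose in cTECs (effects 1.92 and 1.69) and were not called in mTEChi. The calls of Ccnd1 and Ccnd2 passed in 24 and 16 of 26 refits. Without control mTEChi replicate 1, 11 list members had the higher effect in mTEChi. Summed thymocyte markers were 1830 to 5920 CPM in control and 685 to 1350 CPM in HOIL-deficient cTECs, and 287 to 419 CPM in control and 380 to 583 CPM in HOIL-deficient mTEChi. Control cTEC replicate 1, the highest library for these markers, was also the highest for Kif11. Their part in the result was not tested.

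Promoters of 2 cell cycle genes are shown because the members moved together and share a known promoter element, the CCAAT box bound by NF-Y. The stretches are the 200 bases before the transcription start in RefSeq (GRCm38.p6), written 5′ to 3′ on the gene's strand, with the motif CCAAT on either strand in capitals.
Kif11 (chr19:37376182-37376381, plus strand): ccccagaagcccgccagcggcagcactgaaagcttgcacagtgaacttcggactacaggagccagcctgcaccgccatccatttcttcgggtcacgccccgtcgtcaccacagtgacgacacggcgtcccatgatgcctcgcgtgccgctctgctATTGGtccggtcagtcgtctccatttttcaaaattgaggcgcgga
Ccnb2 (chr9:70421555-70421754, minus strand): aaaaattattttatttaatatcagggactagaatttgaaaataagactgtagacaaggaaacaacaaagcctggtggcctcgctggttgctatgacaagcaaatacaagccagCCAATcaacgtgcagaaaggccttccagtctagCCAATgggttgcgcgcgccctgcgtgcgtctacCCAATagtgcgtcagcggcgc
A window of 250 bases before to 50 after the start was searched for 14214 tested genes with such a promoter. The CCAAT motif lay in 14 of 16 promoters of mTEChi-only higher cell cycle genes (87.5%), in 26 of 33 of all tested list members (78.8%) and in 42.3% of all promoters. TTTGAA, the core of the cell cycle homology region, lay in 7 of those 16 (43.8%) and in 15.5% of all. TTTGGCGC or TTTCCCGC, E2F-type motifs, lay in 3 of 16 (18.8%) and in 2.83% of all. A match describes the letters only. Ccnb2, the mitotic cyclin B2, had 3 copies and effects of 2.15 in mTEChi and 0.41 in cTECs (difference 1.74, SE 0.44, adjusted p = 0.026; named after its values were seen, passing in 19 of 26 refits).

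Opposite responses ran from trace to abundant transcripts. Among those that rose in mTEChi and met the naming rule given with the processing, the 5 with the largest difference were Il9r, Lrrc26, Clec2i, Btn2a2 and Dck. Btn2a2, a butyrophilin that restrains T cells, was at 12.5, 18.5 and 12.7 CPM in controls and 6.03, 3.49 and 3.72 CPM without HOIL in cTECs and 3.03, 5.20 and 3.74 CPM in controls and 14.7, 9.82 and 20.6 CPM without HOIL in mTEChi. It crossed from a cortical to a medullary excess without overlap in either population (difference 3.63, SE 0.53, adjusted p = 0.0020). Dck, deoxycytidine kinase, had effects of -1.57 and 1.85 (difference 3.43, SE 0.52, adjusted p = 0.0026). Il9r and Lrrc26 were traces in control cTECs (1.49, 0.628 and 1.404 CPM for Il9r, 1.03, 1.38 and 1.50 CPM for Lrrc26). Il9r, a cytokine receptor chain, had 35 counts in control and 0 in HOIL-deficient cTECs, at least 13.2-fold lower, and rose in mTEChi from 9.91, 15.8 and 12.7 to 35.9, 21.2 and 39.02 CPM. Clec2i, a C-type lectin-like gene, had effects of -2.39 and 1.41 (difference 3.80). Abundant genes were also among them. Tbata (Entrez 65971, chromosome 10, 61171964 to 61188841), a thymic stromal gene, was at 10342, 6621 and 7851 CPM in controls and 3470.4, 4218 and 3924 CPM without HOIL in cTECs and 1017, 735 and 725 CPM in controls and 1314, 1492 and 1426 CPM without HOIL in mTEChi (difference 1.87, SE 0.25, adjusted p = 0.0013). Ctsl, the cathepsin that trims class II ligands in cTECs, had -0.73 and 0.65 (difference 1.38; named after its values were seen).

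In the reverse direction the 5 leading genes by the same rule were Lgals7, Rbp4, Capn6, Igf2 and Hcar2. Igf2, an insulin-like growth factor, was at 43.9, 23.7 and 27.5 CPM in controls and 5.38, 4.72 and 10.4 CPM without HOIL in mTEChi and 0.560, 0 and 0.301 CPM in controls and 2.68, 1.26 and 1.86 CPM without HOIL in cTECs (difference -4.80, SE 0.80, adjusted p = 0.0041). Lgals7, a galectin of stratified epithelia, had 1 count in control cTECs and 94 in HOIL-deficient cTECs, a ratio of 79.7 (95% counting interval 14 to 3180), with 0 CPM in replicate 1. Rbp4, the retinol carrier, had 1 and 70 counts there, a ratio of 59.4 (10.3 to 2380). In mTEChi both fell (effects -2.10 and -1.75). Capn6 and Hcar2 had differences of -5.29 and -4.79. Ccl19 (Entrez 24047, chromosome 4, 42754525 to 42756365), a CCR7 ligand of the medulla, was at 206, 207 and 198 CPM in control and 128, 112 and 153 CPM in HOIL-deficient mTEChi. In cTECs it was at 3.92, 2.76 and 3.61 CPM in controls and 14.9, 11.3 and 11.0 CPM without HOIL, no overlap in either (difference -2.47, SE 0.27, adjusted p = 0.00041). Tppp3, a tubulin-binding protein, had effects of 1.87 and -1.55, and its difference had the smallest adjusted p of the genes named here (0.00029). Hspb1, a small heat shock protein, had 2.06 and -1.03 (difference -3.09, SE 0.50, adjusted p = 0.0035).

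Part of the interferon-stimulated genes fell in each population. Of 50 tested, 19 fell in cTECs (6.02% of all genes), whereas 13 fell and 5 rose in mTEChi (8.59% and 11.3% of all genes). For the difference 12 were higher and 2 lower in mTEChi (5.97% and 3.86% of all genes). With RLE or upper-quartile factors the higher count was 6 or 5, and with males only 5. It was 7 without control cTEC replicate 3 or control mTEChi replicate 3, and 6 without control mTEChi replicate 1 or HOIL-deficient mTEChi replicate 2 or 3. Median effects were -0.557 in cTECs and -0.198 in mTEChi. Tgtp1, a T cell-specific GTPase induced by interferon gamma, was at 831, 812 and 785 CPM in controls and 281, 327 and 147 CPM without HOIL in cTECs. In mTEChi it was at 123, 188 and 197 CPM in controls and 168, 284 and 193 CPM without HOIL, with overlap (difference 2.03, SE 0.38, adjusted p = 0.0072). Tgtp1 and Tgtp2 are near-identical copies, so reads may be split between them. Gbp6, a guanylate-binding protein, had -1.09 and 0.27 (adjusted p for the difference = 0.0083). Shared lower members were 6, among them Ifit3, an antiviral effector (effects -1.15 and -0.78; named after its values were seen). The 2 genes with the lower effect in mTEChi were Isg15, a ubiquitin-like modifier, and Oas1b, an oligoadenylate synthetase, named after their values were seen. Isg15 fell in mTEChi from 206, 94.2 and 109.8 to 19.8, 27.2 and 34.7 CPM and stood at 63.6, 102 and 97.8 CPM in controls and 74.1, 44.7 and 51.1 CPM without HOIL in cTECs (difference -1.69, SE 0.44, adjusted p = 0.027). With both control replicate 1 libraries left out, neither was called, and the calls passed in 19 and 20 of 26 refits.

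Promoters of an interferon-stimulated gene from each response are shown to compare their elements. The motif in capitals is GAAANNGAA, a pair of half-sites of the interferon-stimulated response element, on either strand, and matches that overlap are merged.
Tgtp1, called lower in cTECs (chr11:48992247-48992446, minus strand): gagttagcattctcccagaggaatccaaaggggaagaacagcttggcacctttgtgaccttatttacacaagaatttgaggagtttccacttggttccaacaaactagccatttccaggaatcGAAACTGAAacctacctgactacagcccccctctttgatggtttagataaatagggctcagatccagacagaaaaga
Ifit3, called lower in both (chr19:34583329-34583528, plus strand): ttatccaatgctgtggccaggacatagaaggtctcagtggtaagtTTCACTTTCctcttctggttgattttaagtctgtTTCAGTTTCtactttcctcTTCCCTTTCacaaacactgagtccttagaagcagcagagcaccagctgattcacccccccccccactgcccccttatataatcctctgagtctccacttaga
Isg15, called lower in mTEChi (chr4:156200819-156201018, minus strand): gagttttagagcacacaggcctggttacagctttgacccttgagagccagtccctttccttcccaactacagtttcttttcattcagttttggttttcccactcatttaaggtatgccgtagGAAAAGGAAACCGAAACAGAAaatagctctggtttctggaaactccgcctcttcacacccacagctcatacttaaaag
Tgtp1 held 1 match, 77 to 69 bases before the start, Ifit3 held 3 separate matches and Isg15 3 that overlap, between 78 and 58 bases before it. The motif lay in 4 of 5 promoters of cTEC-only lower list members, 4 of 6 of shared lower members, 23 of 35 of all tested members (65.7%) and 8.8% of all promoters. The letters thus did not separate the responses among these few genes.

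Part of the NF-kB target genes fell in each population. Of 42 tested, 7 had the higher and 3 the lower effect in mTEChi, beside 5.97% and 3.86% of all genes. With RLE or upper-quartile factors the counts were 3 and 4. With males only the higher count was 3. The higher count was also 3 or 4 without any 1 of control cTEC replicate 2, HOIL-deficient cTEC replicate 3, control mTEChi replicates 1 and 3, and HOIL-deficient mTEChi replicates 1 and 3. In cTECs 7 fell (6.02% of all genes). In mTEChi 11 fell and 4 rose (8.59% and 11.3%). Ltb (Entrez 16994, chromosome 17, 35194507 to 35196305), lymphotoxin beta, was at 32.6, 19.7 and 21.0 CPM in control mTEChi and 163, 90.5 and 129.8 CPM in HOIL-deficient mTEChi, with no overlap. In cTECs it was at 13.2, 7.91 and 9.23 CPM in controls and 5.14, 3.40 and 6.89 CPM without HOIL (difference 3.35, SE 0.44, adjusted p = 0.0013). Cxcl1 (Entrez 14825, chromosome 5, 90891245 to 90893121), a neutrophil chemokine, went the other way in mTEChi, from 85.5, 113 and 131 to 17.1, 12.1 and 26.6 CPM, and held 7.75, 5.27 and 9.63 CPM in controls and 9.39, 14.9 and 10.8 CPM without HOIL in cTECs (difference -3.18, SE 0.44, adjusted p = 0.0014). Ccl5 fell in mTEChi from 187, 164 and 216 to 30.03, 37.6 and 62.9 CPM and was at 3.93 ± 0.579 and 4.77 ± 0.768 CPM in cTECs (SD, n = 3; difference -2.39, SE 0.38, adjusted p = 0.0029). Birc3, an inhibitor of apoptosis that acts in TNF receptor complexes, had 0.60 and -0.31 (difference 0.92, SE 0.25, adjusted p = 0.033). Cd40, the costimulatory receptor, had 0.32 and -0.62 (difference 0.94, SE 0.24, adjusted p = 0.025). Both calls were lost with RLE or upper-quartile factors, and passed in 14 and 18 of 26 refits. Vcam1, an adhesion molecule, was opposite (-0.53 and 0.79; difference 1.32; named after its values were seen). Traf1, a signalling adaptor, was called for the difference alone (0.90 and -0.54; difference -1.43), in 19 of 26 refits. Shared lower members were 3, among them Tnfaip3, the deubiquitinase A20 (-0.99 and -0.80; named after its values were seen).

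Ltb and Cxcl1 responded in opposite directions in mTEChi, and both promoters held a match to the NF-kB motif, in capitals on either strand.
Cxcl1 (chr5:90891045-90891244, plus strand): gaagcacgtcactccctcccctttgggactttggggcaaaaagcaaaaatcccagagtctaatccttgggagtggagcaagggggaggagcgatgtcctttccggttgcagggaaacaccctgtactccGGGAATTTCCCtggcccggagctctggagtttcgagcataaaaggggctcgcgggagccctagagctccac
Ltb (chr17:35194307-35194506, plus strand): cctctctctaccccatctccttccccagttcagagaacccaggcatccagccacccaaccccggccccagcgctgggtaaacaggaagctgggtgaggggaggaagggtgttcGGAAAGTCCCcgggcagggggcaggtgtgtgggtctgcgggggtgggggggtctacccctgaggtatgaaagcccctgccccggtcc
The capitals in Cxcl1 cover 2 overlapping matches, from 71 to 61 bases before the start, and those in Ltb 1 match from 87 to 78. The motif lay in 19 of 33 promoters of tested NF-kB targets (57.6%), and in 12.1% of all promoters. Shares in the response classes were 16.4% of 55 opposite genes that rose in mTEChi, 3.45% of 58 that fell there, 14.4% of cTEC-only lower and 12.7% of mTEChi-only higher genes.

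Several growth arrest and stress genes had lower effects in mTEChi. Of 28 p53 target genes, 6 had the lower and 0 the higher effect in mTEChi by edgeR, limma-voom and DESeq2 alike. Over all genes the edgeR shares were 3.86% and 5.97%. The list as a whole did not shift: its median difference was -0.00298, and 13 members had a positive difference. At an unadjusted p under 0.05 in edgeR there were 7 lower and 4 higher. The higher count was 2 without control cTEC replicate 2 and 1 without control cTEC replicate 3. Cdkn1a (Entrez 12575, chromosome 17, 29090979 to 29100722), the cyclin-dependent kinase inhibitor p21, fell in mTEChi from 551, 506 and 483 to 147, 127 and 148 CPM. In cTECs it was at 87.7, 45.8 and 55.1 CPM in controls and 59.2, 56.6 and 36.2 CPM without HOIL, with overlap (difference -1.55, SE 0.32, adjusted p = 0.011). Phlda3, an inhibitor of Akt, was opposite (0.97 and -0.54; difference -1.51, SE 0.25, adjusted p = 0.0040). Gdf15, a stress cytokine, was at 84.5, 86.9 and 96.3 CPM in controls and 50.6, 35.5 and 59.2 CPM without HOIL in mTEChi and rose from 0.374, 0.251 and 0.702 to 0.782, 1.65 and 3.995 CPM in cTECs (difference -3.17, SE 0.66, adjusted p = 0.011). Of 28 immediate early and dissociation stress genes, 7 had the lower and 1 the higher effect in mTEChi (3.86% and 5.97% of all genes). The median effects were -0.666 in mTEChi and 0.00317 in cTECs. The lower count was 4 without control cTEC replicate 2 or without HOIL-deficient mTEChi replicate 1. Klf4 fell in mTEChi from 102, 50.7 and 65.5 to 18.7, 30.4 and 21.1 CPM and stood at 5.04, 3.26 and 6.92 CPM in controls and 8.72, 10.9 and 5.72 CPM without HOIL in cTECs (difference -2.35, SE 0.49, adjusted p = 0.010). Ier5, an early response gene, had -1.005 and 0.52 (difference -1.52, SE 0.25, adjusted p = 0.0041). The exception was Nr4a1, an orphan nuclear receptor named after its values were seen, which rose in mTEChi (1.44 against 0.04 in cTECs; adjusted p for the difference = 0.042, past the threshold in 10 of 26 refits). These lists include genes that respond to tissue dissociation, and the mitochondrial share moved with the mTEChi groups as given above. Their part in the result was not tested.

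Several chaperones of the endoplasmic reticulum rose in both populations. Of 29 genes of the unfolded protein response, 10 rose in mTEChi (11.3% of all genes). In cTECs 8 rose and 2 fell (6.06% and 6.02%), and 7 were shared higher (1.7%). For the difference 5 were higher and 1 lower in mTEChi (5.97% and 3.86%). The higher count was 3 with RLE factors and 2 with upper-quartile factors or males only. It was 3 without HOIL-deficient cTEC replicate 1, control mTEChi replicate 3 or HOIL-deficient mTEChi replicate 1, and 2 without HOIL-deficient mTEChi replicate 3. Pdia3 (Entrez 14827, chromosome 2, 121413902 to 121438687), a disulfide isomerase of MHC class I loading, rose in mTEChi from 448, 435 and 451 to 1321, 1647 and 1329 CPM. It was at 440.4, 589.9 and 466 CPM in controls and 751, 566 and 682 CPM without HOIL in cTECs, with no call there (adjusted p = 0.094; difference 1.27, SE 0.22, adjusted p = 0.0047). Pdia4 and Pdia6 rose in both and more in mTEChi (differences 0.89 and 0.73; passing in 22 and 18 of 26 refits; Pdia6 named after its values were seen). Asns, asparagine synthetase, rose in mTEChi (0.98, against -0.26 in cTECs; difference 1.25, SE 0.25, adjusted p = 0.0094).

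MHC class II presentation genes had the higher effect in mTEChi for 6 of 22, and the lower for 0 by edgeR. Over all genes these shares were 5.97% and 3.86%. limma-voom and DESeq2 also gave 0 lower (7 higher each), as did an unadjusted p under 0.05 in edgeR (10 higher). In mTEChi 5 rose (11.3% of all genes), and in cTECs 6 fell (6.02%). Ifi30, a lysosomal thiol reductase, was opposite, at 76.97, 86.3 and 95.9 CPM in controls and 46.0, 51.3 and 51.4 CPM without HOIL in cTECs and 244, 255 and 245 CPM in controls and 393, 314 and 357 CPM without HOIL in mTEChi (difference 1.32, SE 0.20, adjusted p = 0.0024). H2-Aa, an MHC class II chain, rose in mTEChi (0.46) with a difference that did not pass (difference 0.53, SE 0.18, adjusted p = 0.075). Of the mTEChi markers, Aire was at 656, 974 and 798 CPM in controls and 1013, 792 and 1022 CPM without HOIL and Fezf2, another regulator of tissue-restricted genes, at 354, 395 and 357 CPM in controls and 699, 591 and 598 CPM without HOIL in mTEChi. Neither was called in any comparison, and both were near zero in cTECs. For Fezf2 every HOIL-deficient mTEChi library was nevertheless above every control. The fit takes a single spread per gene over all 12 libraries, the near-zero cTEC libraries included. A missing call therefore does not show equal levels. The 95% intervals of their differences were -0.92 to 2.61 and -1.07 to 2.50. Cd80, a costimulatory ligand, was at 11.5, 29.8 and 31.2 CPM in controls and 46.3, 51.6 and 40.2 CPM without HOIL in mTEChi without a call (effect 0.92, adjusted p = 0.13). Tnfrsf11a, which encodes RANK, rose in both populations (0.95 and 0.87; interval of the difference -0.88 to 0.71). Ccl21a fell in cTECs (effect -2.10) without a call for the difference (difference 1.90, SE 0.71, adjusted p = 0.11), and its near-identical copies may share reads.

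Part of the genes of specialised medullary cells fell in mTEChi. In cTECs few were called, in part at counts near the shares of all genes. Of 29 tuft cell genes, 13 fell in mTEChi (8.59% of all genes did). The lower effect there was called for 7 (3.86% of all genes), or 4 without control mTEChi replicate 1 or with males only. Of those 7, 3 fell in mTEChi with no call in cTECs and 4 rose in cTECs with no call in mTEChi. In cTECs 4 list members rose and 2 fell (6.06% and 6.02% of all genes), the 2 near the share of all genes. The median effects of the list were -1.32 in cTECs and -1.46 in mTEChi. They include 13 of the 29 genes that were near zero in a population, where effects rest on few counts. The close medians therefore do not show a shared fall. Bmx, a kinase, fell in mTEChi from 36.2, 22.2 and 26.3 to 3.45, 3.87 and 8.95 CPM (difference -4.41, SE 1.08, adjusted p = 0.022). Its call passed in 20 of 26 refits. Dclk1, a tuft cell kinase, was at 11.4, 11.0 and 9.63 CPM in controls and 43.6, 42.5 and 40.8 CPM without HOIL in cTECs and 51.7, 30.8 and 35.6 CPM in controls and 57.0, 38.2 and 41.6 CPM without HOIL in mTEChi (difference -1.77, SE 0.32, adjusted p = 0.0061). L1cam and Ptgs1 also rose in cTECs, are expressed by other cells as well, and had differences of -3.11 and -2.72. Of 31 keratinized cell genes, 10 fell in mTEChi (8.59% of all genes). In cTECs 2 rose and 4 fell (6.06% and 6.02% of all genes), the 2 near the share of all genes. For the difference 5 had the lower and 2 the higher effect in mTEChi (3.86% and 5.97% of all genes). With males only these counts were 3 and 1. Near zero in a population were 19. The 2 higher were Dsg1a, a desmoglein that fell in cTECs from 50 counts to 2, and Klk7, a kallikrein with 19 counts in control and 0 in HOIL-deficient cTECs (named after its values were seen, and passing in 9 of 26 refits). Krtdap, a keratinocyte differentiation gene, fell in mTEChi from 187, 68.2 and 118 to 13.2, 16.1 and 25.6 CPM and was at 0.747, 0.502 and 0.903 CPM in controls and 2.24, 2.14 and 1.72 CPM without HOIL in cTECs (difference -4.21, SE 0.59, adjusted p = 0.0015). Of 54 Aire-dependent tissue-restricted genes, 18 fell in mTEChi, again beside 8.59% of all genes. Of the 54, 45 were near zero in a population and 1 was called for the difference, Defb1, a beta-defensin (36.7, 16.0 and 17.2 CPM in controls and 2.44, 1.61 and 5.92 CPM without HOIL in mTEChi; difference -4.10, SE 0.82, adjusted p = 0.0094). The lower count of this list was 4 with DESeq2, which called 2763 genes for the difference against 1908 in the main fit. It was 2 with RLE factors, upper-quartile factors, males only, no filter on low counts or the replicate number as a block. The 3.86% of all genes with the lower effect applies to the main fit only.

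Among mTEChi-only genes that met the naming rule, the 5 higher with the largest difference were Fzd4, Ccdc8, Evi2b, Fli1 and Lrp1b. Fzd4, a Wnt receptor, rose from 0.233, 0.831 and 0.241 to 4.26, 19.1 and 12.05 CPM in mTEChi, with 9.06, 6.15 and 9.63 CPM in controls and 8.05, 10.2 and 19.98 CPM without HOIL in cTECs (difference 4.06, SE 0.85, adjusted p = 0.011). Fzd4 and the transcription factor Fli1 are also endothelial genes, and for both replicate 1 was the lowest HOIL-deficient library, as it was for summed endothelial markers (433 CPM against 1030 and 1190). Their part in these results was not tested. Fli1 had 2.67 and -0.95, Ccdc8 2.54 and -1.41, Evi2b 2.22 and -1.53. Lrp1b, a lipoprotein receptor relative, rose in mTEChi from 6.18, 18.1 and 16.5 to 46.2, 56.8 and 35.4 CPM (difference 3.35, SE 0.70, adjusted p = 0.011). The 5 lower were Car8, Dapl1, Fap, Bmx and Krtdap. Dapl1, an epithelial differentiation gene, fell from 285, 89.8 and 119.8 to 14.002, 18.6 and 19.3 CPM, against 0.467, 1.13 and 0.201 CPM in controls and 1.68, 2.23 and 1.79 CPM without HOIL in cTECs (difference -4.97, SE 0.71, adjusted p = 0.0017). Car8, a carbonic anhydrase-related gene, fell from 32.5, 35.6 and 38.4 to 1.72, 5.29 and 4.65 CPM (difference -5.47, SE 1.10, adjusted p = 0.0094). Fap, fibroblast activation protein, fell in mTEChi (-3.09) against 1.59 in cTECs (difference -4.68).

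Several of the largest differences among cTEC-only genes came from transcripts with 0 to 3 counts over 1 of the cTEC groups. By the naming rule, the 5 lower were Tex11, Atp8b4, Slco4a1, Bcat1 and Cdh9. Slco4a1, an anion transporter, had 95 counts in control and 0 in HOIL-deficient cTECs, at least 35.9-fold lower, and stood at 30.9, 36.7 and 33.2 CPM in controls and 16.7, 11.1 and 21.4 CPM without HOIL in mTEChi (difference 7.03, SE 1.21, adjusted p = 0.0063). Cdh9, a cadherin, had 43 and 0 counts in cTECs, at least 16.9-fold lower, and 23.8, 30.1 and 29.8 CPM in controls and 28.6, 12.9 and 30.1 CPM without HOIL in mTEChi. Atp8b4, with 57 and 0 counts, was at least 20.8-fold lower and Tex11, with 36 and 0, at least 13.9-fold lower. Bcat1, an aminotransferase, had 49 and 1 counts, a ratio of 57.8 (9.89 to 2330). These bounds take 3 counts over a group as the floor, and bounds and intervals cover counting error only. The fitted difference of a gene with 0 counts in a group depends on the prior count and is no bound. The call of Tex11 passed in 12 of 26 refits. The 5 higher were Dmbt1, Cst9, Retn, Cidec and Car3. Dmbt1, with 0 and 68 counts, was at least 17.9-fold higher, and Cst9 had 1 and 136 counts, of which replicate 2 held most (0, 11.1 and 1.52 CPM). Cst9 was not called with both control replicate 1 libraries left out or by limma-voom. More abundant was Krt14 (Entrez 16664, chromosome 11, 100203162 to 100207510), a basal keratin, which rose in cTECs from 37.6, 68.1 and 40.2 to 375, 265 and 329.8 CPM, to the level of mTEChi (308, 284 and 389 CPM in controls and 488, 379 and 369 CPM without HOIL; difference -2.40, SE 0.32, adjusted p = 0.0013). Its partner Krt5 also rose in cTECs (1.57), with a difference that did not pass (difference -1.71, SE 0.60, adjusted p = 0.085).

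Retn, Cidec and Car3 are adipocyte genes, and adipocyte markers as a list rose in cTECs. Of 14 tested, 11 rose in cTECs and 3 in mTEChi (6.06% and 11.3% of all genes). The lower effect in mTEChi was called for 6 (3.86% of all genes). It was called for 10 with DESeq2, which called 2763 genes for the difference against 1908 in the main fit. Retn, resistin, had 1 count in control and 144 in HOIL-deficient cTECs, a ratio of 122 (21.6 to 4860), and was at 19.5, 11.6 and 11.7 CPM in controls and 18.8, 16.6 and 16.7 CPM without HOIL in mTEChi. Cidec, a lipid droplet protein, had 3 and 342 counts, a ratio of 96.7 (32.8 to 471). Car3, a carbonic anhydrase of adipose tissue, was at 0.374, 2.51 and 0.201 CPM in controls and 60.6, 67.8 and 235 CPM without HOIL in cTECs and 19.9, 40.9 and 33.7 CPM in controls and 94.1, 60.8 and 132 CPM without HOIL in mTEChi (difference -5.39, SE 0.94, adjusted p = 0.0055). Adipoq, adiponectin, was at 0, 0.753 and 0 CPM in controls and 14.98, 9.71 and 22.8 CPM without HOIL in cTECs and 12.7, 21.1 and 18.7 CPM in controls and 38.8, 18.2 and 32.3 CPM without HOIL in mTEChi (difference -5.36, SE 0.92, adjusted p = 0.0046). Cfd, adipsin, rose in both (9.42 and 2.90; difference -6.53; named after its values were seen), and Fabp4 rose in cTECs with no call in mTEChi (difference -2.89, SE 0.51, adjusted p = 0.0052). The list's sum was 149 to 253 CPM in control and 657 to 997 CPM in HOIL-deficient cTECs, and 1030 to 2380 and 1360 to 2380 CPM in mTEChi. In bulk samples more cells of a type and more RNA per cell cannot be told apart.

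Thymocyte markers fell in cTECs. Of 23, 18 fell in cTECs (6.02% of all genes). For the difference 12 had the higher and 0 the lower effect in mTEChi (5.97% and 3.86%). DESeq2 gave 15 and 0, limma-voom 5 and 0, and an unadjusted p under 0.05 in edgeR 21 and 0. The median effects were -1.92 in cTECs and 0.445 in mTEChi. Tcf7, a T cell transcription factor, was at 589.7, 248 and 357 CPM in controls and 99.7, 68.1 and 154 CPM without HOIL in cTECs and 55.5, 66.2 and 57.5 CPM in controls and 99.6, 93.8 and 105 CPM without HOIL in mTEChi (difference 2.63, SE 0.42, adjusted p = 0.0034). Cd6 and Bcl11b had differences of 3.17 and 2.36. Lck, the T cell kinase, was at 917, 294 and 422 CPM in controls and 126, 87.9 and 197 CPM without HOIL in cTECs (difference 1.92, SE 0.51, adjusted p = 0.032). Control replicate 1 was the highest cTEC library for each of these genes. With both control replicate 1 libraries left out, Lck was no longer called and 9 of the 23 markers were. The call of Lck passed in 16 of 26 refits. With males only, 7 of the 23 markers were called. Leaving out 1 library gave 7 of 23 without HOIL-deficient cTEC replicate 1 or 2 or control mTEChi replicate 1, 5 without HOIL-deficient mTEChi replicate 3 and 4 without control mTEChi replicate 3. The sort excluded CD45-positive cells.

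**Figure D4:**
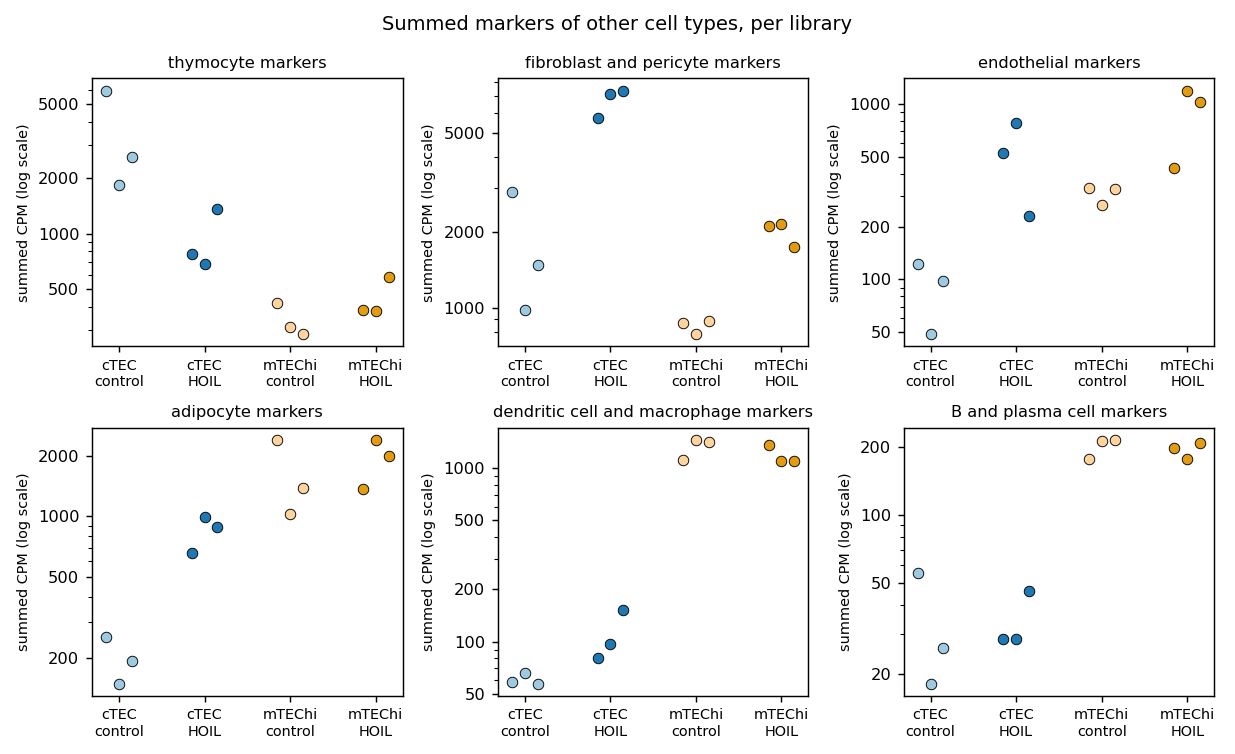
Summed CPM (log scale) of the markers of 6 other cell types in each of the 12 libraries, by group. Thymocyte markers are lower in HOIL-deficient than in control cTECs, adipocyte markers are higher in HOIL-deficient cTECs, and fibroblast and endothelial markers are higher in the HOIL-deficient libraries of both populations.

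Endothelial markers and part of the stromal markers rose in both populations. Of 20 endothelial markers, 16 rose in cTECs (6.06% of all genes) and 11 in mTEChi (11.3%), and 11 were shared higher (1.7%). Plvap, a fenestral diaphragm protein, was at 18.5, 10.5 and 9.73 CPM in controls and 78.6, 89.6 and 26.7 CPM without HOIL in cTECs and 15.6, 31.4 and 33.9 CPM in controls and 89.5, 118 and 146 CPM without HOIL in mTEChi (interval of the difference -1.42 to 1.03). Tek, the angiopoietin receptor, was the 1 member called for the difference (difference -2.65, SE 0.69, adjusted p = 0.028). That 1 of 20 is near the 3.86% of all genes with the lower effect in mTEChi. Of 25 fibroblast and pericyte markers, 15 rose in cTECs and 9 in mTEChi (6.06% and 11.3% of all genes), 8 shared higher. Sparc, a matrix protein, had 1.96 and 1.58 (interval -1.04 to 0.28). The 3 called for the difference, Pdgfrb, Rgs5 and Tagln, are pericyte or smooth muscle genes that rose in cTECs with no call in mTEChi (differences -2.54, -2.52 and -1.85). These calls passed in 12, 18 and 18 of 26 refits, and that of Tek in 20. The lower count of the fibroblast and pericyte list was 7 without control cTEC replicate 1 and 1 without HOIL-deficient cTEC replicate 2. It was 0 without any 1 of control mTEChi replicates 1 and 3 and HOIL-deficient mTEChi replicates 1 and 3, and 0 with males only, in the edgeR refits. Of 21 dendritic cell and macrophage markers, 1 rose in cTECs and 1 had the lower effect in mTEChi, near the 6.06% and 3.86% of all genes. That gene, Lyz2, rose in cTECs from 8.13, 15.3 and 8.23 to 21.6, 42.7 and 79.2 CPM. Its means were 945 CPM in control and 854 CPM in HOIL-deficient mTEChi (difference -2.35, SE 0.51, adjusted p = 0.014). The call passed in 25 of 26 refits and was lost with males only. The sort excluded CD31-positive cells and required EpCAM.

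**Figure D5:**
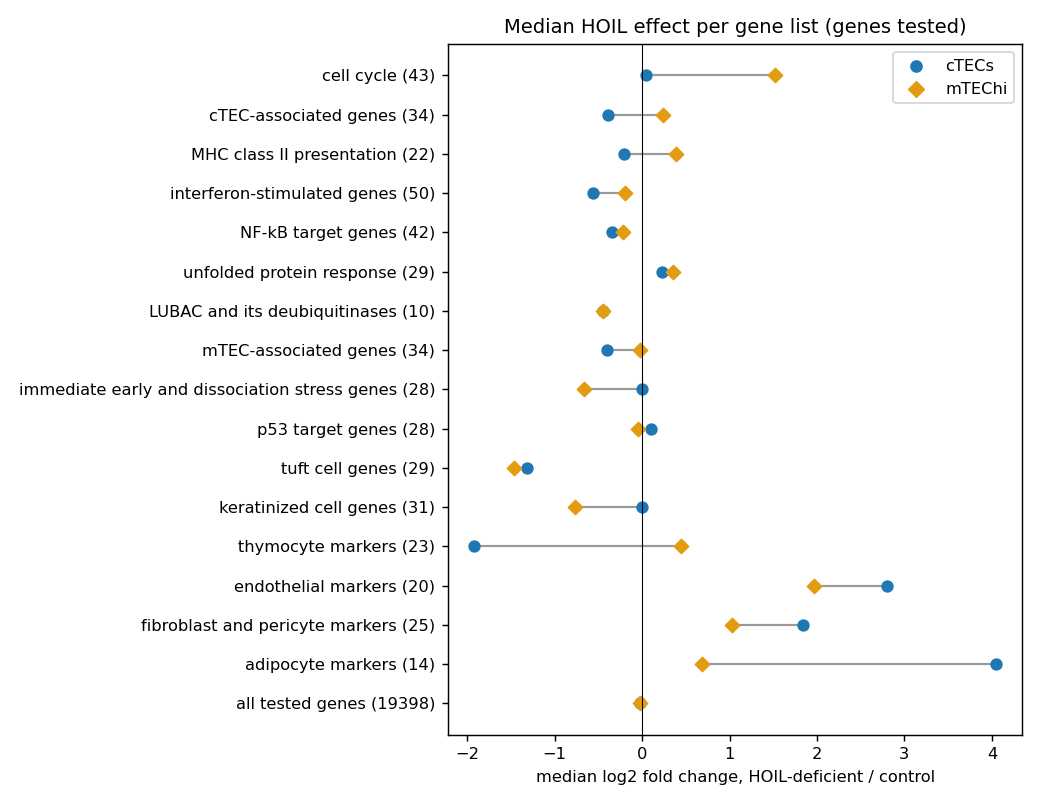
Median log2 fold change of each gene list in cTECs (circles) and mTEChi (diamonds), with the number of genes tested, near-zero genes included. The grey line joins the 2 medians. Cell cycle genes differ by a high mTEChi median (1.52), thymocyte and adipocyte markers by the cTEC medians (-1.92 and 4.05).

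Shared responses were close in size. The median effects of the 329 shared higher genes were 1.45 in cTECs and 1.43 in mTEChi, and of the 215 shared lower genes -1.06 and -1.04. For 32 of the 544 the difference was called, 22 with the larger effect in cTECs and 10 in mTEChi. By the naming rule, the 5 higher genes with the largest effect in both were Cdh19, Cd36, Matn2, Olfml2b and Jam2. Cdh19, a cadherin of Schwann cell precursors, was at 0.187, 0.753 and 0.702 CPM in controls and 17.9, 15.3 and 18.3 CPM without HOIL in cTECs and 0, 0.312 and 0.483 CPM in controls and 10.5, 13.5 and 4.58 CPM without HOIL in mTEChi (interval of the difference -1.59 to 1.83). Matn2, a matrilin of the extracellular matrix, was at 20.6, 10.5 and 8.83 CPM in controls and 123, 121 and 154 CPM without HOIL in cTECs and 4.20, 5.92 and 5.31 CPM in controls and 70.7, 44.9 and 70.0 CPM without HOIL in mTEChi (interval -0.61 to 1.16). Cd36, a fatty acid receptor, and Jam2, a junction molecule, varied widely among HOIL-deficient libraries (151, 351 and 79.8 CPM for Cd36 in cTECs and 77.7, 724 and 335 in mTEChi). The leading lower genes, besides Rbck1, were Wfdc18, Prap1, Serpina7 and Afm. Each was a trace in control cTECs beside mTEChi. Prap1, an epithelial secreted protein, was at 2.15, 1.26 and 0.502 CPM in control cTECs, and fell in mTEChi from 511, 193 and 246 to 38.6, 49.2 and 65.9 CPM (interval of the difference -1.64 to 3.04). Afm, the albumin relative afamin, had -2.93 and -2.42.

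Genes near zero in a population were kept apart. They numbered 3956 in cTECs only, 268 in mTEChi only and 79 in both, and 117 of them were called for the difference. Of those 117, 108 were near zero in cTECs (58 higher and 50 lower in mTEChi), 8 in mTEChi and 1 in both. Such a difference rests on few counts in one population. Slc10a4, a transporter of cholinergic neurons, had 25 counts in control and 0 in HOIL-deficient cTECs, at least 9.83-fold lower, while it rose in mTEChi from 6.88, 10.1 and 8.69 to 24.8, 18.9 and 15.2 CPM (difference 7.38, SE 1.02, adjusted p = 0.0024). Trim46 and P2rx3, with 25 and 24 counts in control cTECs and 0 in HOIL-deficient cTECs, were at least 9.09-fold and 8.92-fold lower there. Slurp1, a keratinocyte-secreted peptide, had 0 and 18 counts in cTECs, at least 5.28-fold higher, and fell in mTEChi from 51.2, 25.9 and 39.7 to 11.9, 2.64 and 7.47 CPM. Atp2b2 had 0 and 22 counts in cTECs and Cd177 1 and 25, with 0, 0 and 1.72 CPM in the HOIL-deficient replicates. The calls of Slurp1, Atp2b2 and Cd177 passed in 16, 9 and 12 of 26 refits. The keratinized cell gene Calml3 had 1 and 23 counts in cTECs and fell in mTEChi (difference -6.32, SE 1.21, adjusted p = 0.0076). Scn1a, a sodium channel, was near zero in mTEChi, with 23 counts in control and 2 in HOIL-deficient libraries, and was at 8.50, 13.6 and 12.04 CPM in controls and 24.8, 23.3 and 11.6 CPM without HOIL in cTECs (difference -4.47, SE 1.11, adjusted p = 0.024). Its call passed in 18 of 26 refits.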

How the data were processed

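RNA of sorted mouse thymic epithelial cells was measured by SMART-Seq v4 and Nextera XT libraries read as 75-base pairs, per the labels' protocols. The values are raw read counts per gene deposited by the authors, made with featureCounts on mm10 per the submitters' processing notes. The aligner, the annotation, tool versions and strand setting were not given in the sources used here. Of 27179 genes, 25275 matched a symbol in the RefSeq table, and 19398 passed edgeR's expression filter. Effects in each population and their difference were fitted over all 12 libraries with edgeR 4.0.16 (robust quasi-likelihood, TMM scaling, R 4.3.3), with Benjamini-Hochberg adjustment over all tested genes. SE is the absolute log2 fold change over the square root of F, and 95% intervals of a difference use the t distribution. A population is near zero for a gene when both group means are under 1 CPM. Tested on simulated data, the median estimates lay close to the simulated differences. Most of the smaller simulated differences were not called, so a missing call is weak evidence of equal effects. The simulation gave all genes the same spread and changed only well-counted genes, in HOIL-deficient mTEChi. It did not test the estimates of genes with few counts. Alternatives used DESeq2 1.42.0, limma 3.58.1, other scalings, filters and thresholds, and each library left out. Leaving out both control replicate 1 libraries and a random block were chosen after seeing the data. Replicate numbers were not taken to pair the samples, and the labels do not say whether same-numbered libraries share mice. Across 6 same-numbered pairs the correlation of deviations was -0.041 to 0.139, over 0.1 in 2. Between libraries of different numbers it was -0.0848 to 0.0918. Among HOIL-deficient libraries the same-numbered pairs had 0.0754, 0.138 and 0.0766, and the other pairs -0.0848 to 0.0203. These values do not settle whether the numbers pair the samples. The members and gene lists were chosen with earlier results of these data known. Named genes are a fixed set of epithelial genes, the 5 with the largest difference per response class and direction (3 near zero; shared genes by the smaller effect) at a mean log2 CPM of at least 1, the 3 per list with the smallest p for the difference, the 2 most abundant markers per other cell type, and genes named in the text as chosen after their values were seen; 1 gene is not reported here. The choice by class left out genes without a symbol, sex-linked genes, pseudogenes, and predicted or clone-named genes. The choice by list left out sex-linked genes too. Promoter sequences are from RefSeq, GRCm38.p6.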

Additional observations from a re-analysis of the deposited data

Results flagged for a closer look

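For 1908 of 19398 tested genes the HOIL effects in mTEChi and cTECs differed by the interaction test of edgeR at an adjusted p under 0.05. The named genes among them are given here with the log2 difference, the mTEChi effect minus the cTEC effect. Genes that fell in cTECs and rose in mTEChi had log2 differences of Btn2a2 3.63, Clec2i 3.80, Ctsl 1.38, Dck 3.43, Ifi30 1.32, Il9r 7.96, Lrrc26 4.68, Tbata 1.87 and Vcam1 1.32. Genes that rose in cTECs and fell in mTEChi had log2 differences of Capn6 -5.29, Ccl19 -2.47, Hcar2 -4.79, Hspb1 -3.09, Igf2 -4.80, Igfbp5 -3.22, Lgals7 -7.92, Phlda3 -1.51, Rbp4 -7.37 and Tppp3 -3.42. Genes called higher in mTEChi alone had log2 differences of Asns 1.25, Birc3 0.92, Ccdc8 3.95, Ccnb2 1.74, Cxcl12 1.89, Evi2b 3.75, Fli1 3.62, Foxm1 2.34, Foxn1 1.80, Fzd4 4.06, Kif11 2.71, Lrp1b 3.35, Ltb 3.35, Mcm4 1.53, Nr4a1 1.404, Pdia3 1.27, Pltp 1.76 and Slc46a2 2.03. For genes called lower in mTEChi alone the log2 differences were Bmx -4.41, Car8 -5.47, Ccl5 -2.39, Cdkn1a -1.55, Cxcl1 -3.18, Dapl1 -4.97, Defb1 -4.10, Fap -4.68, Ier5 -1.52, Isg15 -1.69, Klf4 -2.35, Krtdap -4.21, Oas1b -2.04 and Otulin -0.80. For genes called lower in cTECs alone the log2 differences were Atp8b4 7.25, Bcat1 6.88, Bcl11b 2.36, Cd40 0.94, Cd6 3.17, Cd83 2.44, Cdh9 6.74, Dsg1a 5.44, Gbp6 1.35, Lck 1.92, Ly75 1.54, Prss16 1.99, Psmb11 1.67, Sdha 0.97, Slco4a1 7.03, Tapbp 0.89, Tcf7 2.63, Tex11 7.47 and Tgtp1 2.03. For genes called higher in cTECs alone they were Adipoq -5.36, Car3 -5.39, Ccnd1 -1.68, Ccnd2 -1.12, Cidec -5.87, Cst9 -8.30, Dclk1 -1.77, Dmbt1 -8.57, Fabp4 -2.89, Gdf15 -3.17, Igfbp6 -3.31, Krt14 -2.40, L1cam -3.11, Lyz2 -2.35, Pdgfrb -2.54, Ptgs1 -2.72, Retn -6.29, Rgs5 -2.52, Rplp0 -0.84, Tagln -1.85, Tek -2.65 and Tgfb2 -2.03. Among genes called higher in both, the log2 differences were Cfd -6.53, Pdia4 0.89 and Pdia6 0.73. Among genes called lower in both, the log2 difference was Cd274 0.99. Genes near zero in a population had Atp2b2 -6.32, Calml3 -6.32, Cd177 -5.99, Klk7 4.97, P2rx3 6.65, Scn1a -4.47, Slc10a4 7.38, Slurp1 -7.93 and Trim46 6.94, fitted values that rest on few counts. Traf1, called for the difference alone, had -1.43.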

How the results depend on the processing

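The difference was called for 1908 genes, the effect for 2342 in cTECs and 3858 in mTEChi, with 544 shared, 142 opposite, 593 cTEC-only, 879 mTEChi-only and 117 near-zero genes. Leaving out 1 library gave 949 to 2088 difference calls, 1340 to 2409 in cTECs, 1944 to 4395 in mTEChi, 303 to 618 shared, 52 to 179 opposite, 353 to 643 cTEC-only, 402 to 948 mTEChi-only and 42 to 106 near-zero genes. In cTECs the calls fell to 1340 without control cTEC replicate 3, and in mTEChi to 1944 without control mTEChi replicate 1. With males only, which drops replicate 3 of both HOIL-deficient groups, there were 1030 difference and 1540 cTEC calls, 290 shared, 51 opposite, 393 cTEC-only, 446 mTEChi-only and 50 near-zero genes. Sex as a covariate gave 73 opposite genes. DESeq2 gave 232 opposite, 917 cTEC-only and 215 near-zero genes. At an adjusted p under 0.01 there were 464 difference, 814 cTEC and 1536 mTEChi calls, 146 shared, 20 opposite, 175 cTEC-only, 187 mTEChi-only and 10 near-zero genes. At 0.1 there were 3270 difference calls, 866 shared, 304 opposite, 949 cTEC-only, 1425 mTEChi-only and 280 near-zero genes. Near-zero limits of 0.5 and 5 CPM gave 45 and 370 near-zero genes, and leaving out both control replicate 1 libraries gave 54. The replicate number as a block gave 1484 difference calls, 86 opposite and 61 near-zero genes. A block of genotype and number together gave 1475 difference calls. A random replicate block with limma-voom gave 2214 difference calls and 176 near-zero genes. The numbers were not taken to pair the samples, since the labels do not say whether same-numbered libraries share mice. The correlations of the 6 same-numbered pairs, 2 of them above 0.1, did not settle it. Replicate 3 of both HOIL-deficient groups is female. The replicate block moved no other total by over 1.5 times. Except where the changed threshold or the smaller number of libraries sets it, the cause was not tested. Of 106 named genes called for the difference, 74 were called under all 26 refits, and 0 reversed direction under any alternative. Many of them were chosen from these same libraries for a large difference or a small p. The refits reuse those libraries, so these counts are no independent support.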
